A study of Homo sapiens with 6 samples.

Results

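Replication-dependent histone genes were examined in polyA RNA of fibroblasts with active Ras, with and without depletion of the long noncoding RNA sin-lncRNA. The members are the rows of the deposited table whose gene name starts with HIST1H, HIST2H, HIST3H or HIST4H (older symbols) and whose gene type is protein coding. The rule gave 71 of the 57819 genes: 6 of class H1, 17 of H2A, 18 of H2B, 15 of H3 and 15 of H4. By locus, 55 carry a HIST1 name, 12 a HIST2 name, 3 a HIST3 name and 1 a HIST4 name. A further 18 rows with such names are not protein coding and were left out. HIST2H3PS2 is typed as protein coding and stayed in.

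The cells were IMR90 ER:Ras, human lung fibroblasts in which 4-hydroxytamoxifen (4OHT) switches on a Ras protein joined to part of the estrogen receptor. All 6 libraries came from cells given 200 nM 4OHT for 3 days, so no cells without active Ras are compared here. The groups were a scrambled siRNA, siSCR (3 libraries, called control), and an siRNA against sin-lncRNA (3 libraries, called knockdown). The table names the knockdown siRNA si1.3, and only this siRNA against the lncRNA is compared here, so effects of its sequence and of the lncRNA's loss cannot be told apart. Nothing in the labels says that the replicates came from separate cultures, so p-values measure only the spread between these libraries, which may be technical.

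Histones are the proteins that package DNA: H2A, H2B, H3 and H4 form the nucleosome core, and H1 binds the linker between nucleosomes. The replication-dependent genes sit in clusters and are transcribed mainly in S phase. Their mRNAs normally carry no polyA tail and end just after a stem-loop that the protein SLBP binds and the U7 particle helps to cut. Some of these genes also give polyadenylated transcripts that run past the stem-loop to a site downstream, and such transcripts are known from cells that have stopped dividing. PolyA selection therefore samples a part of histone mRNA, and the levels below are those of polyadenylated (or carried over) histone RNA and not of all histone mRNA.

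The stem-loop is shown first, since it is where the usual, tailless mRNA ends. It was searched as GG, any pair of bases, CTTTT, any base, AG, any pair of bases and CC, on the sense strand of GENCODE 29 transcripts. It was found in the transcripts of 31 of the 71 members, against 80 of all 58721 genes (0.136%). In the forms below the capitals mark the 6-base stem arms and the lower case the 4-base loop, 5′ to 3′.
Form in HIST1H2AC, HIST2H2BE, HIST1H2BE, HIST1H2BG and others (17 members of H2A, H2B and H3): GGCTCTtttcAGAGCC
Form in HIST1H2BC, HIST1H2BD and others (5 members of H2B and H3): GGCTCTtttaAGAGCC
Form in HIST1H4H and others (5 members of H4): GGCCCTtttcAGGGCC
Form in HIST2H4A, HIST2H4B and HIST1H4I (H4): GGCCCTttttAGGGCC
Form in HIST1H2AG (H2A): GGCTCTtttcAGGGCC
All 8 H4 members with a match shared stem arms that differed from those of H2A, H2B and H3, except that the second arm of HIST1H2AG had the H4 letters. The search fixed the first bases of the loop and left the last free, so only that last base could vary. Of the 40 members without a match, 36 have no transcript longer than 700 nt in GENCODE 29, and these include HIST1H2BK and HIST1H2BO, whose listed transcripts are of 381 nt. No match says only that these letters are not in the listed transcript.

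Transcripts that run on past the stem-loop were annotated for many of the members with reads. Of the 31 with a stem-loop, 22 had a transcript reaching at least 100 bases past it, and 17 of those 22 had enough reads to be tested. Of the 9 with a shorter run, 6 were tested. In HIST1H2AC the run was 1128 bases, in HIST2H2BE 1729 and in HIST1H2BG 1059. Gene spans in the deposited table come from the authors' own annotation. The runs of HIST1H2BG and HIST1H3H (1059 and 769 bases), among others, exceed the whole spans given there, 445 and 473 bases. The counted models of these genes thus leave out at least part of the run. The 20 members whose span exceeded 1000 bases held 78.1% of all member reads, and 17 of them were tested, against 14 of the 51 with shorter spans. Reads were counted on these gene models, so a long model can also collect more reads. Levels below are reads scaled to a library of 1000000 reads in genes (RPM), which rank members by reads and not by molecules, because the exon lengths used in the authors' counting are not given in the sources used here.

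The upstream sequences of the 6 members that changed are shown because H2B genes share a known promoter element, the octamer bound by OCT1, and these genes moved in both directions. Promoters came from RefSeq (GRCh38.p14), for 61 of the 71 members, as windows of 300 bases from 250 before to 50 after the gene start. Each line gives the 160 bases before the start, 5′ to 3′ on the gene's strand, and capitals mark the octamer, ATTTGCAT or its reverse complement ATGCAAAT.
HIST1H2BK, chr6:27146859-27147018, minus strand: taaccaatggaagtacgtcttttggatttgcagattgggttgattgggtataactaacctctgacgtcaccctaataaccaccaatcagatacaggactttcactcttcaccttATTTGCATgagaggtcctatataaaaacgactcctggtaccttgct
HIST1H2BE, chr6:26183601-26183760, plus strand: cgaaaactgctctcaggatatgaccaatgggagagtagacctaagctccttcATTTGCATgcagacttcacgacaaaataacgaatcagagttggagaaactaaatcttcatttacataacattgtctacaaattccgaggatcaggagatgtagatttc
HIST1H2BO, chr6:27893265-27893424, plus strand: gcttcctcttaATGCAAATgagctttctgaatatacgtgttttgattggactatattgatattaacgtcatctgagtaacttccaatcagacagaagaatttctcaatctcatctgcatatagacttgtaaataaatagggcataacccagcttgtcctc
HIST1H2BN, chr6:27838409-27838568, plus strand: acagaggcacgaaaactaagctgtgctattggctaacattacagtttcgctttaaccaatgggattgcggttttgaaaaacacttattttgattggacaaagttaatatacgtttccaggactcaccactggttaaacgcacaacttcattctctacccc
HIST1H2BC, chr6:26123927-26124086, minus strand: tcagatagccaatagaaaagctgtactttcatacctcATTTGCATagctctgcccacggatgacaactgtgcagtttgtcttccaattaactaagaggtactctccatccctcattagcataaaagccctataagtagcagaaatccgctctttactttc
HIST1H2BG, chr6:26216689-26216848, minus strand: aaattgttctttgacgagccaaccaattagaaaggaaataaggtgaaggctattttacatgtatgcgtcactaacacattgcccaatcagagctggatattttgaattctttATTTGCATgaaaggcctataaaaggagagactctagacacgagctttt
The octamer was in 5 of these 6 sequences, in 3 of the 4 genes that fell and in both that rose, and it had no match in HIST1H2BN. Over the full windows it was found in 14 of 18 H2B promoters (77.8%) and 11 of 14 H2A promoters, in 1 of 10 of H3 and in 0 of 6 of H1 and 0 of 13 of H4. The H3 match, HIST1H3D, has the same window as HIST1H2AD, so 1 sequence is counted in both classes. Divergent H2A and H2B genes also have overlapping windows, in which the same bases can be the match of both genes. This was so for HIST1H2AC with HIST1H2BC, HIST1H2AE with HIST1H2BG, HIST1H2AG with HIST1H2BJ and HIST2H2AC with HIST2H2BE, among others. The H2A and H2B shares are thus not separate counts. Of all 35116 promoter windows 623 held it (1.77%). A pair or more of CCAAT boxes (CCAAT or ATTGG, minimum 2) was in 16 of 18 H2B, 14 of 14 H2A, 9 of 10 H3, 1 of 6 H1 and 0 of 13 H4 promoters, against 10.8% of all windows. Most H2A and H2B promoters thus held these letters, and the 6 genes that changed were all H2B. A match is a description of the letters and not a site, and no match says only that the letters are not in the window.

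Depth was lower in every knockdown library, at 22117324 to 27882280 reads in genes against 30271192 to 50913672 in controls. The targeted lncRNA was at 3.70, 4.73 and 4.09 RPM in controls and 0.493, 0.640 and 0.534 RPM in knockdowns, which is -2.86 on the log2 scale (SE 0.18; limma, adjusted p = 7.9e-07). All 8 fibroblast markers were detected, and 5 fell while 3 rose, against 23.5% lower and 17.5% higher of all genes tested. Their summed level was 15190 to 16370 RPM in controls and 10690 to 11120 RPM in knockdowns, with COL1A1 and COL1A2 lower (log2 fold changes of -0.88 and -0.77) and COL3A1, THY1 and LUM higher (0.38, 0.19 and 0.68). Epithelial markers summed to at most 0.533 RPM with KRT5 at 0, blood markers to at most 0.356 RPM, and the endothelial marker CDH5 was at 0 in 5 of the 6 libraries. VWF, the other endothelial marker found, stood at 1.67 to 1.83 RPM in controls and 2.20 to 2.60 RPM in knockdowns, and it rose (0.42; limma, adjusted p = 0.034). The part of other cell types in the results below was not tested. As a gauge of tailless RNA in the libraries, RN7SK, RMRP, RPPH1, RN7SL1 and RN7SL2, chosen after the values were seen, summed to 66.4, 46.5 and 66.6 RPM in controls and 41.3, 69.2 and 83.1 RPM in knockdowns. In limma 0 of the 5 passed the test, against 41.0% of all genes. An unadjusted p under 0.05 was found for 0, and 0 passed with voom. The summed levels of the groups overlapped. SEs of these 5 genes ran from 0.22 to 0.49 on the log2 scale, so a change in them could have been missed. The part that RNA quality or the efficiency of polyA selection had in the results below was not tested.

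Polyadenylated histone RNA was dominated by a few H2A and H2B genes. In reads pooled over the 6 libraries, in which the deeper controls weigh more, HIST1H2BK, HIST1H2AC and HIST2H2BE together held 56.1% of member reads and the top 12 held 87.5%. The order of the first 2 differed between the groups. HIST1H2BK led in every control library, with 28.2% to 29.6% of member reads against 19.2% to 19.6% for HIST1H2AC. HIST1H2AC led in every knockdown library, with 22.5% to 23.4% against 14.4% to 17.0% for HIST1H2BK. By class in the pooled reads, H2B took 50.0%, H2A 34.2%, H4 9.18%, H1 4.36% and H3 2.21%, and the H2B share was 51.1% to 54.7% in controls and 43.8% to 46.9% in knockdowns. At the other end, 40 members averaged under 10 normalized reads and were not tested: 5 of H1, 9 of H2A, 8 of H2B, 10 of H3 and 8 of H4. They held 1.42% of member reads, none exceeded 15 reads in a library, and 7 had no read in any library. With 0 reads, counting error alone still permits 3 reads, which is 0.0596 to 0.134 RPM depending on the library. For HIST1H2AD, which lies within HIST1H3D on the same strand, and HIST2H3PS2, which overlaps RP5-998N21.10, this is no limit on their level, since the counting could leave out reads shared by overlapping genes. The 7 were HIST1H2AA, HIST1H2AD, HIST1H2BA, HIST1H2BB, HIST1H4G, HIST1H4L and HIST2H3PS2. The first and the third of these are known as genes of the male germ line.

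**Figure D1:**
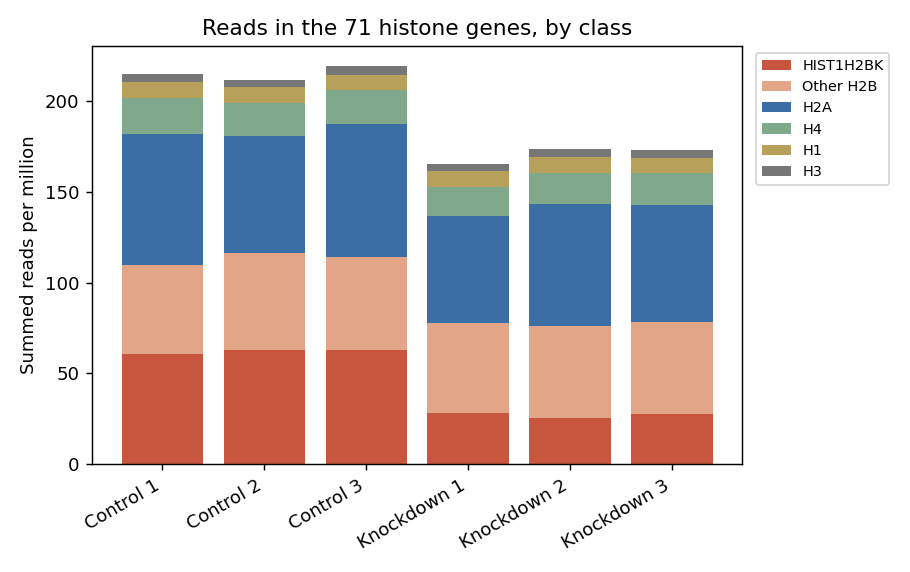
Summed RPM of the 71 histone genes in each of the 6 libraries (bars from 0), split into HIST1H2BK, the other H2B genes, H2A, H4, H1 and H3. Control bars reach 212 to 220 and knockdown bars 165 to 174, and the HIST1H2BK segment shrinks from about 62.1 to 26.8 on average while the other H2B segment stays near 51.

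Total member RNA was lower after the knockdown, and a single gene made up most of the difference. The members summed to 215, 212 and 220 RPM in controls and 165, 174 and 173 RPM in knockdowns, without overlap of the groups. HIST1H2BK accounted for 35.3 of the 44.8 RPM between the group means (78.9%). Without it the sum was 153.4 ± 3.8 RPM in controls and 144.0 ± 6.1 in knockdowns (SD, n = 3). The groups then still did not overlap, by a narrow margin, at 149.2 to 156.8 RPM in controls and 137.2 to 148.9 in knockdowns. The H2B class went from 113.5 ± 3.1 to 77.3 ± 1.1 RPM, and without HIST1H2BK from 51.3 ± 2.0 to 50.5 ± 0.9 RPM. H2A went from 69.9 ± 4.7 to 63.6 ± 4.0 RPM, with the groups overlapping. H4 went from 19.0 ± 0.7 to 17.0 ± 0.6 RPM, H1 from 8.72 ± 0.33 to 8.66 ± 0.34 and H3 from 4.43 ± 0.42 to 4.19 ± 0.41. H4 libraries did not overlap, at 18.3 to 19.8 RPM in controls and 16.3 to 17.4 in knockdowns. These sums were given no test. In bulk RNA, fewer cells carrying such transcripts and less RNA per cell cannot be told apart.

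Of the 31 members tested, 6 changed, all of them H2B genes: 4 fell and 2 rose in the main limma test (Benjamini-Hochberg adjusted p under 0.05 over 19048 genes). That is 19.4% of the members tested, below the 41.0% of all genes that changed. Within H2B, 6 of the 10 genes tested changed. By direction, 17.5% of all genes were higher and 23.5% lower. Among genes with a mean of at least 50 normalized reads 47.5% changed, and 3 of the 16 members at that level did. Among genes with a mean of 10 to 50, 15.8% changed, and 3 of 15 members did. The libraries of the groups did not overlap for 11 members (8 lower, 3 higher; 35.5%), against 51.1% of all genes. The median log2 fold change was -0.12 over the 31 members and -0.04 over all genes tested. The 21 tested members of the other classes had a median of -0.20. In limma 0 of these 21 passed the test, 3 had an unadjusted p under 0.05 (HIST1H4H, HIST2H4A and HIST3H2A), and 0 passed with voom. Over all tested members the share that changed was thus below the background. Among genes with a mean of 10 to 50 the share of members, 3 of 15, was not below it. The restriction to H2B did not hold in every setting: 6 of 19 other settings called members of other classes in limma, 7 genes in all. Among them was HIST1H1A, with 1 read in the 6 libraries together. HIST3H2A was called lower without control 2 (-1.27, adjusted p = 0.0033) or knockdown 2 (-1.23, 0.019), HIST2H2AA4 lower without control 2 (-0.33, 0.026) and HIST1H4H lower without knockdown 3 (-0.29, 0.042).

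**Figure D2:**
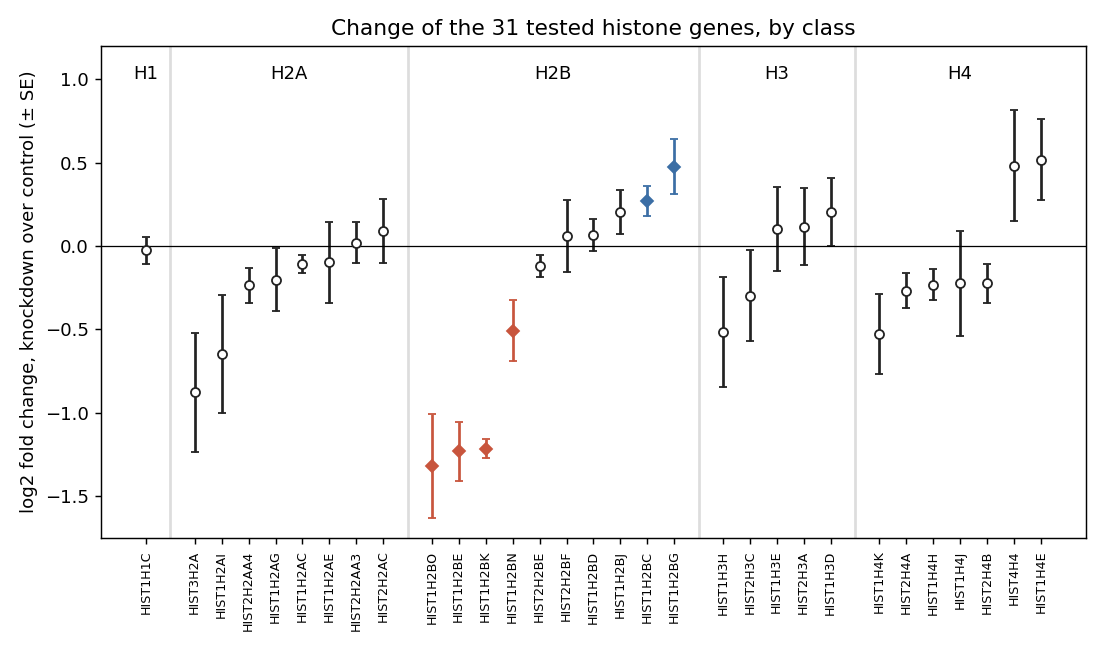
Log2 fold change (knockdown over control) with its standard error for the 31 tested histone genes, grouped by class. Filled diamonds mark the 6 genes that passed the test (red lower, blue higher) and open circles the 25 that did not. All 6 diamonds are H2B genes, from -1.32 for HIST1H2BO to 0.48 for HIST1H2BG.

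HIST1H2BK (ENSG00000197903.6, hg19 chromosome 6, 27106073 to 27114619, minus strand), which encodes a core histone H2B, had the most reads of any member in each control library. It stood at 60.7, 62.7 and 62.9 RPM in controls and at 28.0, 25.0 and 27.3 RPM in knockdowns. The groups lay far apart, and the log2 fold change was -1.21 (SE 0.06; limma, adjusted p = 1.3e-07). Its share of member reads went from 28.2%, 29.6% and 28.6% in controls to 17.0%, 14.4% and 15.8% in knockdowns. The gene overlaps HIST1H4I, an H4 gene on the opposite strand that was not tested and stood at 0.134 to 0.512 RPM. Whether the authors' counting used strand is not given in the sources used here.

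HIST1H2BE (ENSG00000197697.3, chromosome 6, 26183958 to 26184454, plus strand), another H2B gene, stood at 2.32, 1.90 and 2.03 RPM in controls and 0.762, 0.896 and 0.962 RPM in knockdowns. It fell by 1.23 on the log2 scale (SE 0.18; limma, adjusted p = 0.00028). HIST1H2BO (ENSG00000196331.5, chromosome 6, 27861203 to 27861669, plus strand) stood at 0.910, 0.866 and 0.974 RPM in controls and 0.403, 0.213 and 0.499 RPM in knockdowns. It fell by 1.32 (SE 0.31; limma, adjusted p = 0.0059), on only 9, 5 and 14 reads in the knockdown libraries. For both genes every knockdown library lay below every control library. These 2 genes and HIST1H2BK lie apart within the HIST1 cluster and fell by similar amounts, although their read levels differed widely.

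HIST1H2BN (ENSG00000233822.3, chromosome 6, 27806323 to 27823487, plus strand) fell less, from 1.38, 1.57 and 1.55 RPM in controls to 0.986, 1.24 and 0.926 RPM in knockdowns, a log2 fold change of -0.51 (SE 0.18; limma, adjusted p = 0.047). The groups did not overlap, but the call was lost when any single library other than knockdown 2 was left out, with limma adjusted p of 0.059, 0.119 and 0.141 without controls 1, 2 and 3, and 0.101 and 0.132 without knockdowns 1 and 3.

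The 2 genes that rose are H2B genes as well. HIST1H2BC (ENSG00000180596.7, chromosome 6, 26115101 to 26124154, minus strand) stood at 6.96, 6.46 and 6.97 RPM in controls and 7.62, 8.92 and 8.09 RPM in knockdowns, a log2 fold change of 0.27 (SE 0.09; limma, adjusted p = 0.035). HIST1H2BG (ENSG00000187990.4, chromosome 6, 26216428 to 26216872, minus strand) stood at 1.97, 2.96 and 2.54 RPM in controls and 3.00, 3.59 and 3.70 RPM in knockdowns, a log2 fold change of 0.48 (SE 0.17; limma, adjusted p = 0.039). In both genes all knockdown libraries lay above all controls, for HIST1H2BG by a narrow margin. The HIST1H2BC call was lost without control 2 (limma, adjusted p = 0.102), control 3 (0.079), knockdown 2 (0.126) or knockdown 3 (0.073). The HIST1H2BG call was lost without control 1 (limma, adjusted p = 0.126), control 3 (0.084), knockdown 2 (0.101) or knockdown 3 (0.126).

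**Figure D3:**
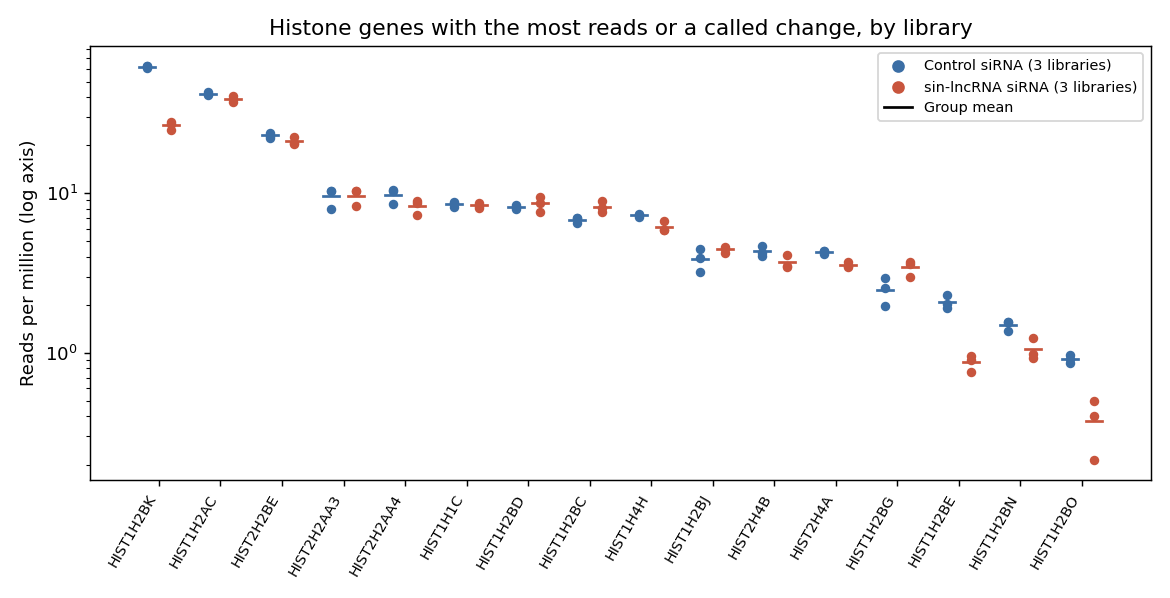
RPM (log axis) in each library for the 12 histone genes with the most reads and the further genes that changed, 16 in all, with controls in blue, knockdowns in red and group means as short lines. HIST1H2BK, HIST1H2BE and HIST1H2BO show a wide gap between the groups, while most other genes overlap or lie close together.

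The other 4 H2B genes tested did not pass. HIST2H2BE (chromosome 1, 149856010 to 149858232, minus strand), whose annotated transcript runs far past the stem-loop, stood at 22.0, 24.0 and 23.0 RPM in controls and 22.6, 20.2 and 20.7 RPM in knockdowns (log2 fold change -0.12, SE 0.07; limma, adjusted p = 0.181). HIST1H2BD gave a log2 fold change of 0.07, HIST1H2BJ of 0.20 and HIST2H2BF of 0.06. HIST1H2BD overlaps LARP1P1 on its own strand, and HIST2H2BF overlaps RP11-196G18.3 and RP11-196G18.21 on its own strand and FCGR1A on the other.

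Of the 8 H2A genes tested, 0 passed in limma (41.0% of all genes did), 1 had an unadjusted p under 0.05 and 0 passed with voom. HIST1H2AC (chromosome 6, 26124373 to 26139344, plus strand) had the most reads of the class. It stood at 41.3, 41.6 and 43.0 RPM in controls and 37.1, 40.7 and 39.1 RPM in knockdowns, a log2 fold change of -0.11 (SE 0.05; limma, adjusted p = 0.133). The groups did not overlap, yet the gap was small beside that of HIST1H2BK. HIST2H2AA3 and HIST2H2AA4 are near-identical copies whose reads the counting could split, so their single values (log2 fold changes of 0.02 and -0.24) are uncertain. HIST3H2A had the lowest H2A value, -0.88, with a wide SE of 0.36 (limma, adjusted p = 0.072). Its libraries ranged from 1.60 to 3.94 RPM in controls and from 0.986 to 2.43 RPM in knockdowns, so the groups overlapped.

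Of the 7 H4 genes tested, 5 had values below 0 and 2 above. In limma 0 of them passed the test (41.0% of all genes did), 2 had an unadjusted p under 0.05 and 0 passed with voom. HIST1H4H stood at 7.11, 7.39 and 7.25 RPM in controls and 5.92, 5.89 and 6.73 RPM in knockdowns, a log2 fold change of -0.23 (SE 0.09; limma, adjusted p = 0.065). HIST2H4A stood at 4.35, 4.16 and 4.35 RPM in controls and 3.45, 3.71 and 3.49 RPM in knockdowns (log2 fold change -0.27, SE 0.10; limma, adjusted p = 0.062). Neither gene's groups overlapped. HIST2H4A and HIST2H4B are near-identical copies, and each overlaps an H3 gene on the opposite strand. HIST1H4E had the highest value of the class, 0.52 (SE 0.24; limma, adjusted p = 0.113).

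H3 and H1 were the classes with the fewest reads. The 5 H3 genes tested ranged from -0.51 for HIST1H3H to 0.21 for HIST1H3D. In limma 0 of them passed the test (41.0% of all genes did), 0 had an unadjusted p under 0.05 and 0 passed with voom. The single H1 gene tested was HIST1H1C (chromosome 6, 26055968 to 26056699, minus strand), a linker histone. It stood at 8.63, 8.79 and 8.21 RPM in controls and 8.34, 8.71 and 8.12 RPM in knockdowns, a log2 fold change of -0.03 (SE 0.08; limma, adjusted p = 0.83). The groups overlapped. The median SE of the tested members was 0.187, against 0.090 over all genes, so a change of the size of HIST1H2BC was not detectable in most members with few reads.

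**Figure D4:**
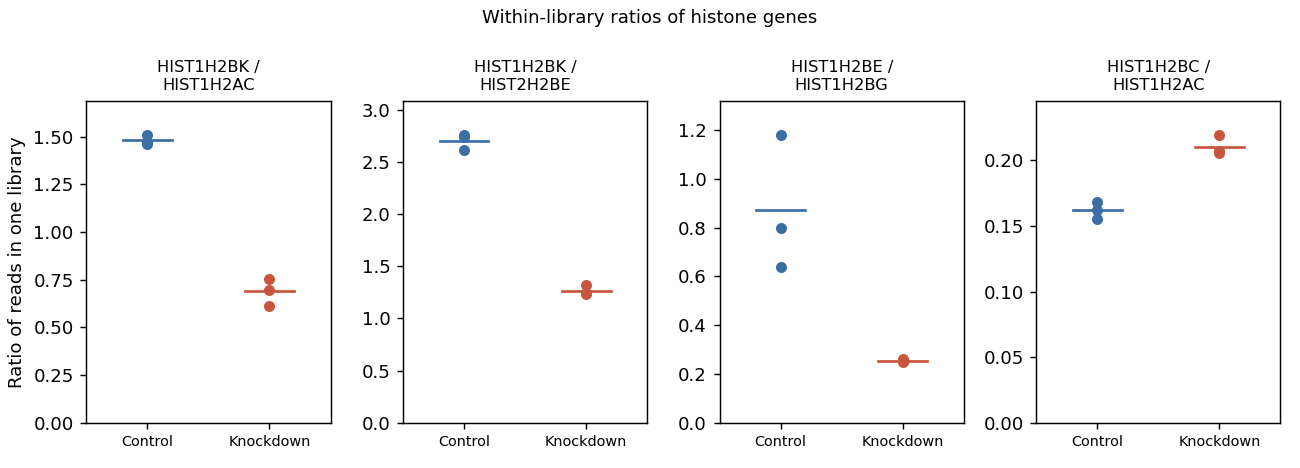
Ratio of the reads of 2 histone genes within each library (y axis from 0), with 3 control and 3 knockdown libraries as points and group means as lines. HIST1H2BK over HIST1H2AC averages 1.48 in controls and 0.689 in knockdowns, and HIST1H2BC over HIST1H2AC averages 0.162 and 0.211.

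Ratios within a library do not depend on how libraries were scaled. For 8 pairs chosen after the values were seen, an exact two-sided permutation test was run, which cannot give a p below 0.1 with 3 libraries against 3. HIST1H2BK over HIST1H2AC was 1.47, 1.51 and 1.46 in controls and 0.755, 0.615 and 0.698 in knockdowns. HIST1H2BK over HIST2H2BE was 2.76, 2.62 and 2.74 in controls and 1.24, 1.24 and 1.32 in knockdowns. HIST1H2BE over HIST1H2BG, both H2B genes, was 1.18, 0.640 and 0.797 in controls and 0.254, 0.250 and 0.260 in knockdowns. HIST1H2BC over its divergent neighbour HIST1H2AC was 0.169, 0.155 and 0.162 in controls and 0.205, 0.219 and 0.207 in knockdowns. In these 4 pairs and in HIST1H2BK over HIST1H2BJ the groups did not overlap, and each gave the smallest exact permutation p, 0.1 (0.16 adjusted over the 8 pairs). Each of these pairs holds a gene already called in the same libraries, so their separation is no further support for those calls. The other 3 pairs gave exact permutation p of 0.2, 0.3 and 0.8.

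Genes around histone supply were counted from lists chosen with earlier results of these data known, and each count stands beside the 41.0% of all genes that changed (23.5% lower, 17.5% higher; median -0.04). Of 39 S phase genes tested, 27 fell and 1 rose, with a median log2 fold change of -0.43. E2F1, a transcription factor of S phase entry, went from 8.99 ± 0.70 to 4.23 ± 0.03 RPM (SD, n = 3; log2 fold change -1.08; limma, adjusted p = 8.9e-06), and GINS4, a subunit of the replicative helicase complex, had -1.19. TYMS, which makes thymidylate, was the gene that rose (0.61), and PCNA, the sliding clamp, gave -0.04 (limma, adjusted p = 0.60). S phase genes and members were measured in the same libraries, and the part that a change in S phase cells had in the members' values was not tested.

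Of 31 genes of histone transcription and 3′ end processing tested, 12 fell and 3 rose (median -0.08), against 23.5% lower and 17.5% higher of all genes, so nothing about the list is read from the count. SLBP, the stem-loop binding protein, went from 41.4 ± 0.4 to 36.4 ± 1.0 RPM (SD, n = 3; log2 fold change -0.19; limma, adjusted p = 0.011). The U7 particle's own subunits went opposite ways: LSM10 fell from 45.9 ± 0.7 to 27.9 ± 0.3 RPM (-0.72; limma, adjusted p = 1.7e-06) and LSM11 rose from 9.77 ± 0.31 to 14.1 ± 0.6 RPM (0.53; limma, adjusted p = 0.00022). NPAT, the coactivator of histone transcription, fell by 0.20 on the log2 scale (limma, adjusted p = 0.023). Of 20 histone chaperones tested, 7 fell and 4 rose (median -0.03), again against 23.5% and 17.5% of all genes, among them CHAF1B of the CAF-1 complex (-0.80) and DAXX, a chaperone of H3.3 (0.54).

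Histone genes listed as replication-independent, most of which carry polyA tails and are also expressed outside S phase, gave more reads. They summed to 958 to 1006 RPM in controls and 1033 to 1065 RPM in knockdowns. Of 12 tested, 3 rose and 2 fell (median -0.04), a share near the 41.0% of all genes. H3F3B, which encodes H3.3, went from 334.6 ± 5.6 to 416.0 ± 6.5 RPM (SD, n = 3; log2 fold change 0.31; limma, adjusted p = 8.3e-05), and H3F3A rose as well (0.21; limma, adjusted p = 0.0056). H2AFX, whose mRNA is known in both a stem-loop and a polyA form, stood at 37.3, 26.1 and 39.0 RPM in controls and 17.1, 24.6 and 22.8 RPM in knockdowns (-0.66; limma, adjusted p = 0.0060). Its groups did not overlap. CENPA, the centromeric H3, had -0.66 too (limma, adjusted p = 0.024). H3F3B alone thus gave more reads than all 71 members together, in every library.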

How the data were processed

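PolyA RNA of 6 libraries was sequenced as 50 bp single-end reads. The submitters' processing notes name hg19, Bowtie2 and featureCounts. The values deposited by the authors are log2 of reads scaled to 1000000 (RPM), with an offset of 0.5 reads, and whole reads were recovered from 100% of values (within 0.01 reads). RPM here is recovered reads over each library's effective size. Genes with a mean of at least 10 normalized reads (19048) were tested with limma 3.58.1 in R 4.3.3 (trended eBayes, knockdown against control, no block), with Benjamini-Hochberg adjustment over all genes and a threshold of 0.05. The fit was tested on simulated data. Named genes are the 12 members with the most reads and every member called, and further members were named after their values were seen. The members and lists were chosen with earlier results of these data known. The main fit did not pair libraries with equal replicate numbers, since the labels do not say whether they were handled together. Alternatives varied the offset, filter, scaling, variance model, depth and libraries.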

Additional observations from a re-analysis of the deposited data

How the results depend on the processing

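The comparison was repeated under 19 other settings. HIST1H2BK (log2 fold change -1.25 to -0.98), HIST1H2BE (-1.37 to -1.04) and HIST1H2BO (-1.56 to -0.90) stayed lower and past the limma threshold in every setting that tested them, and the stricter filter left HIST1H2BE and HIST1H2BO out. HIST1H2BN lost its call in 10 settings, and HIST1H2BC and HIST1H2BG in 6 each. The 6 members called became 3 with a mean of at least 50 normalized reads (1 lower) and 3 after thinning to the smallest total (0 higher). Without a trend in eBayes 1 was higher and 7 lower. Leaving out 1 library gave 3 to 6 members, 0 to 2 higher and 3 to 5 lower. Without a filter 5542 genes were called higher and 4678 lower, against 3325 and 4480. The summed H4 log2 ratio of -0.16 was -0.093 without near-identical copies. Values near 0 changed sign: HIST1H1C with quantile normalization (0.014), HIST1H1C (0.16) and HIST2H2AA4 (0.0022) with a GC and length trend removed, a setting chosen after seeing the data, HIST2H2AA3 (-0.10 to 0.13 with 1 library left out; below 0 without control 2, knockdown 2 or knockdown 3) and HIST1H2BD (-0.0069 to 0.15; below 0 without knockdown 2). Members outside H2B were called in 6 settings: HIST2H2AA3 higher with that trend removed (0.26, limma adjusted p = 0.018), HIST1H4H (0.048), HIST2H4A (0.015) and HIST1H4K (0.013) lower without a trend in eBayes, HIST3H2A lower (-0.88) and HIST1H1A higher (1.13) without a filter, and HIST3H2A, HIST2H2AA4 and HIST1H4H with 1 library left out, as given above. HIST1H1A, with 1 read in all, falls under the limit of the offset given above, and the cause of the other calls was not tested. Blocking on the replicate number (replicate block) called 6454 genes and 4 members, 1 higher and 3 lower. The calls of HIST1H2BC (limma, adjusted p = 0.078) and HIST1H2BN (0.070) were lost. The deviations of libraries from their group means correlated at -0.149, -0.183 and 0.065 between equal replicate numbers 1, 2 and 3. Low read counts limit most H3, H1 and untested members.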
